A study of Mus musculus with 9 samples.

Results

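Genes of prostaglandin synthesis, signalling and inactivation, 9 in number, were followed in sorted bone marrow stromal cells of mice during leukemia. They are the phospholipase Pla2g4a, the cyclooxygenases Ptgs1 and Ptgs2, the terminal synthases Ptges, Ptgis and Ptgds, the receptors Ptger2 and Ptger4, and the inactivating enzyme Hpgd. The genes were taken from a fixed list of names. Where a gene had several probe sets (a probe set is the group of short probes that reads 1 transcript region), the main one was chosen by its mean over the 9 arrays. Of the 9 genes, 8 had a probe set with a single gene symbol, 14 probe sets in all. Ptgs1 is not analysed here.

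The cells came from the marrow of FVB/NJ mice and had been sorted for the absence of CD45.1 (found on leukocytes) and of Ter119 (found on erythroid cells). The 3 groups were wild-type mice (WT, n = 3), recipients at the early stage of leukemia (E, n = 3), with leukemic cells at 1 to 5% of the marrow, and recipients at the medium stage (M, n = 3), with 5 to 50%. The labels call the arrays of a group biological replicates, and give neither the kind of leukemia, the age of the mice nor whether animals were pooled. The latent and late phases are not analysed here. The series asks how stromal expression shifts as leukemia progresses.

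Prostaglandins are short-lived lipid signals. A phospholipase frees arachidonic acid from membranes, a cyclooxygenase turns it into prostaglandin H2, and terminal synthases turn that into prostaglandin E2 (Ptges), prostacyclin (Ptgis) or prostaglandin D2 (Ptgds). EP2 (Ptger2) and EP4 (Ptger4) are receptors of prostaglandin E2 that raise cyclic AMP, and Hpgd oxidises prostaglandins to inactive forms. In the marrow, prostaglandin E2 is known to act on blood stem cells and on bone-forming cells.

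Ptgs2 lies at chr1:150100031-150108234 and Pla2g4a at chr1:149829618-149961290 (GRCm38.p6), 138.7 kb apart on the same chromosome, with 2 annotated genes between them, neither of them protein-coding. Hpgd lies at chr8:56294552-56321046. The promoters of these 3 genes are shown because Ptgs2 was the gene that differed in both phases, Pla2g4a is its neighbour, and Hpgd is the inactivating enzyme. RefSeq promoter windows run from 250 bases before the start of a gene through 50 bases from the start on, and capitals mark matches to the motifs searched.
Ptgs2 (chr1:150099781-150100080, plus strand): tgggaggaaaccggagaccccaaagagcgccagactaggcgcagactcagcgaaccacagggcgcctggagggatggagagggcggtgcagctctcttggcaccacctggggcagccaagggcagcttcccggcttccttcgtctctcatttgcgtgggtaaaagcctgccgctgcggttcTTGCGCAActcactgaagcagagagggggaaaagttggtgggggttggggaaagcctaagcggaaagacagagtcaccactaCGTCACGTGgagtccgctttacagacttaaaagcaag
Hpgd (chr8:56294302-56294601, plus strand): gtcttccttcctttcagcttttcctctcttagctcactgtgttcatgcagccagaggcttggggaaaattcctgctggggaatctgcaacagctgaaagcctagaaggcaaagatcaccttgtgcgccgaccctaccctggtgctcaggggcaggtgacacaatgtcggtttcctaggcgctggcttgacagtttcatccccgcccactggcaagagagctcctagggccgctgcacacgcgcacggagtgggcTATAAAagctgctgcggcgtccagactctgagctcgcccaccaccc
Pla2g4a (chr1:149961241-149961540, minus strand): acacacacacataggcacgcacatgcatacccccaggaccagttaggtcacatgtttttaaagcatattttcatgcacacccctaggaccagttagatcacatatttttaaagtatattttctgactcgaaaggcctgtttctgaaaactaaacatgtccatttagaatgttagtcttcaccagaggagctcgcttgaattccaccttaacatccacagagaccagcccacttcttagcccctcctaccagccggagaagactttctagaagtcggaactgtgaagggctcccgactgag
In the Ptgs2 window the capitals are a C/EBP match at bases 182 to 189, a short CRE site at bases 264 to 268 and an E-box at bases 267 to 272, the last of which overlaps the short CRE site by 2 bases. The Hpgd window held a TATA box match at bases 255 to 260, and this Pla2g4a window held no match. All motifs were searched on both strands. The cyclic AMP response element (CRE) was searched as TGACGTCA. Its short site was TGACG, and on the other strand this reads as CGTCA. The E-box was CACGTG, the TATA box was taken as TATAAA, and on the other strand as TTTATA. The AP-1 motif was written TGANTCA, the C/EBP motif was written TTNNGCAA, and an NF-kB motif was searched as well. Of 32851 promoter windows, 10.8% held the C/EBP motif, 20.8% the short CRE site, 7.15% the E-box, 13.6% the TATA box, 1.79% the CRE, 7.81% the AP-1 motif and 20.7% the NF-kB motif. Of the 9 listed genes 8 had a window. Pla2g4a had a second one with a TATA box match on the other strand, Ptgds held an AP-1 match and Ptger2 a C/EBP match. A match describes the letters in the window and is no evidence that a factor binds there.

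All signals are on the log2 scale of MAS5, and 3 arrays a group set how precisely they are known. A signal is read against the median of all probe sets in its group, which stood at 5.64 for WT arrays, 5.50 for E arrays and 6.26 for M arrays (log2). Of 18194 genes with a single-symbol probe set, the 9097 with the higher mean (at least 6.83) were tested in 1 linear model over all 9 arrays (limma, with Benjamini-Hochberg adjustment over all genes tested, called at an adjusted p under 0.05). Ptgs2, Ptgis, Ptger2, Ptger4, Hpgd and Pla2g4a lay over this filter, and Ptges and Ptgds lay under it. Ptger2 (0.09 over the filter) and Hpgd (0.53 over it) passed through their M arrays alone, since their means over the WT and E arrays were 6.26 and 6.32. Among those under it, Ptgds was 0.66 below the filter and Ptges 1.57 below. For these 2 genes the differences and adjusted p come from the fit of all 18194 genes without the filter. The genes were listed with results of these data known, and Ptgs2 in particular had already been seen to fall in E, so their p-values are no independent evidence.

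The M arrays stood apart from the rest. The root mean square log2 difference of 2 arrays was 0.22 to 0.25 within WT and within E. M arrays differed from WT arrays by 1.10 to 1.35, M replicate 3 from the other M arrays by 0.44, and those 2 from each other by 0.21. The 12 probe sets of poly-A spike-ins, bacterial control RNAs put into each sample, read 1.01 (log2) higher in M than in WT and 1.02 higher in M than in E (two-sided exact permutation p = 0.1 for each, which is as low as 3 against 3 arrays can go). Between E and WT they differed by -0.01 (exact permutation p = 1). With arrays scaled on these controls, each M difference below falls by about that amount, and the median of all genes tested moves to -1.20 in M against WT, where it was -0.19 as deposited. The sorted cells were also not of 1 kind by their markers. The summed linear signal of 10 mesenchymal stromal markers, Cxcl12 and Lepr among them, lay between 3909 and 4416 in WT, between 5024 and 5471 in E and between 55442 and 67497 in M. In E against WT, Col1a1 alone of the 9 tested was called higher (log2 0.66, adjusted p = 0.0380 by limma). Cxcl12 (0.22, adjusted p = 0.252) and Lepr (-0.09, adjusted p = 0.898) were not called. The summed signal of 7 granulocyte markers lay between 6360 and 6864 in WT, 9515 and 10685 in E, and 77965 and 95215 in M. Of these 7, limma called 5 higher in E than in WT and Mpo lower (log2 -0.55, adjusted p = 0.00131). Elane was not called (0.17, adjusted p = 0.579). The sum of 4 erythroid markers was 27151 to 30280 in WT and 21182 to 22276 in E, while in M it was 34813, 32612 and, in replicate 3, 12599. No marker was at 0 in any array. In such bulk samples fewer cells of a type and less RNA per cell cannot be told apart.

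**Figure D1:**
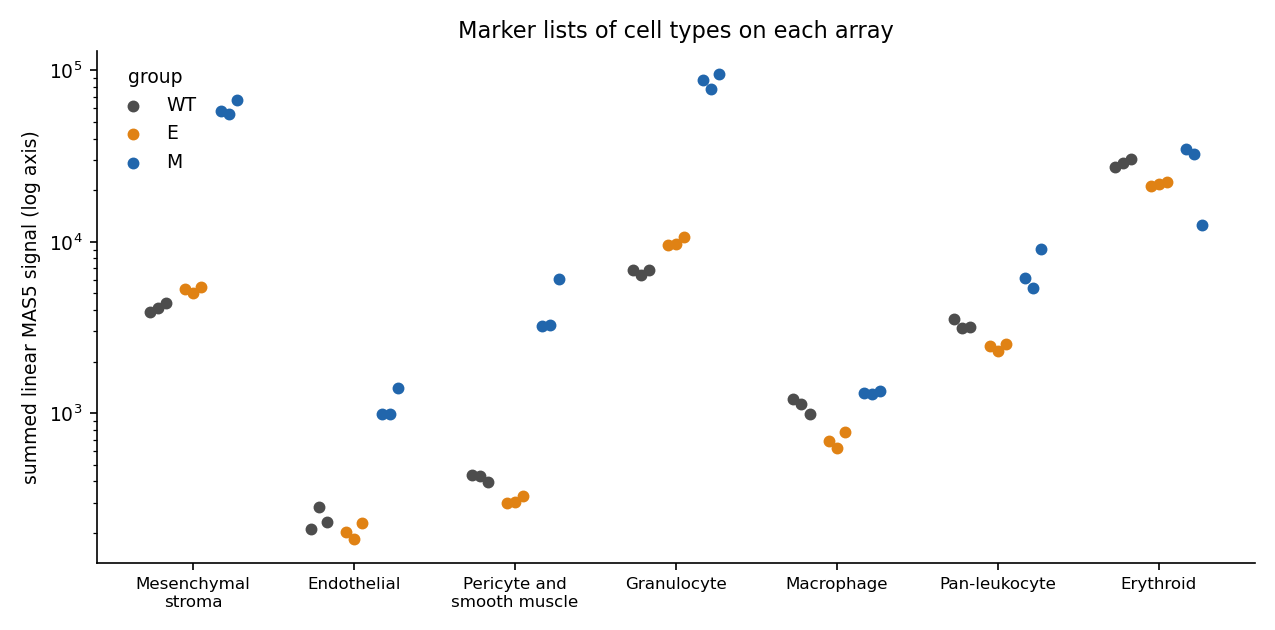
Summed linear MAS5 signal (log axis) of 7 marker lists on each of 9 arrays, 3 each of WT, E and M, 1 point per array. The mesenchymal, endothelial, pericyte, granulocyte, pan-leukocyte and macrophage sums of all M arrays lie above those of all WT and E arrays. The macrophage sum does so narrowly (lowest M array 1288, highest WT array 1210). The erythroid sum of M replicate 3 (12599) lies below those of all other arrays.

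In the early phase, Ptgs2 was lower and the other measured prostaglandin genes did not pass the test. Ptgs2, the inducible cyclooxygenase, read 8.72, 8.59 and 8.44 in E, against 9.97, 9.96 and 10.29 in WT (log2). All E arrays lay below all WT arrays, by more than the range within either group. The difference was -1.49 (SE 0.13, 95% interval -1.77 to -1.20, adjusted p = 0.000154 by limma), which leaves 0.357 of the WT signal. It ranked 16 from the lowest of 9097 genes tested, and 1.65% of the tested genes were called lower in E. The second Ptgs2 probe set, which is dim, read 5.11, 4.12 and 4.08 in E, against 5.83, 5.90 and 6.33 in WT. Its difference was -1.58 (SE 0.33), about as large, but it did not pass (adjusted p = 0.0666 by limma over all single-symbol probe sets). In the same arrays the pan-leukocyte marker sum was 2302 to 2529 in E, against 3150 to 3565 in WT. The macrophage sum was 626 to 780 in E, against 985 to 1210 in WT. Of 5 tested pan-leukocyte markers, 1 was called lower in E. Of 8 macrophage markers Csf1r alone lay over the filter, and it was called lower (-0.88, adjusted p = 0.00219 by limma). The pericyte and erythroid sums were lower in every E array too (pericyte 298 to 330 in E, against 397 to 433 in WT). The mesenchymal, granulocyte and B lineage sums were higher. What part any of these sums had in the Ptgs2 difference was not tested.

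Of the prostaglandin genes, 0 were called higher in E by limma, and 0 at an unadjusted p under 0.05 (0.462% of the tested genes were called higher), and the other 5 over the filter were not called. Pla2g4a, which supplies the arachidonic acid, differed by 0.11 (95% interval -0.11 to 0.34, adjusted p = 0.661). Ptgis read 7.64, 7.26 and 7.63 in E, against 7.26, 7.03 and 7.20 in WT. The E arrays lay above the WT arrays, the closest 2 at nearly the same signal (7.26), and the difference of 0.35 did not pass (adjusted p = 0.495). Hpgd read 6.81, 6.57 and 6.34 in E, against 6.29, 6.16 and 5.74 in WT. Again the arrays did not overlap and the difference of 0.51 did not pass (95% interval -0.30 to 1.32, adjusted p = 0.588). How many of all genes have arrays that do not overlap between groups was not counted in any comparison, so no weight is put on this. The receptors overlapped between the groups, Ptger4 with a difference of 0.14 (adjusted p = 0.612) and Ptger2 with -0.29 (adjusted p = 0.725). Ptges differed by -1.47 with wide scatter (95% interval -3.16 to 0.21, adjusted p = 0.553), and Ptgds by -0.29 (adjusted p = 0.852). These are all limma values.

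**Figure D2:**
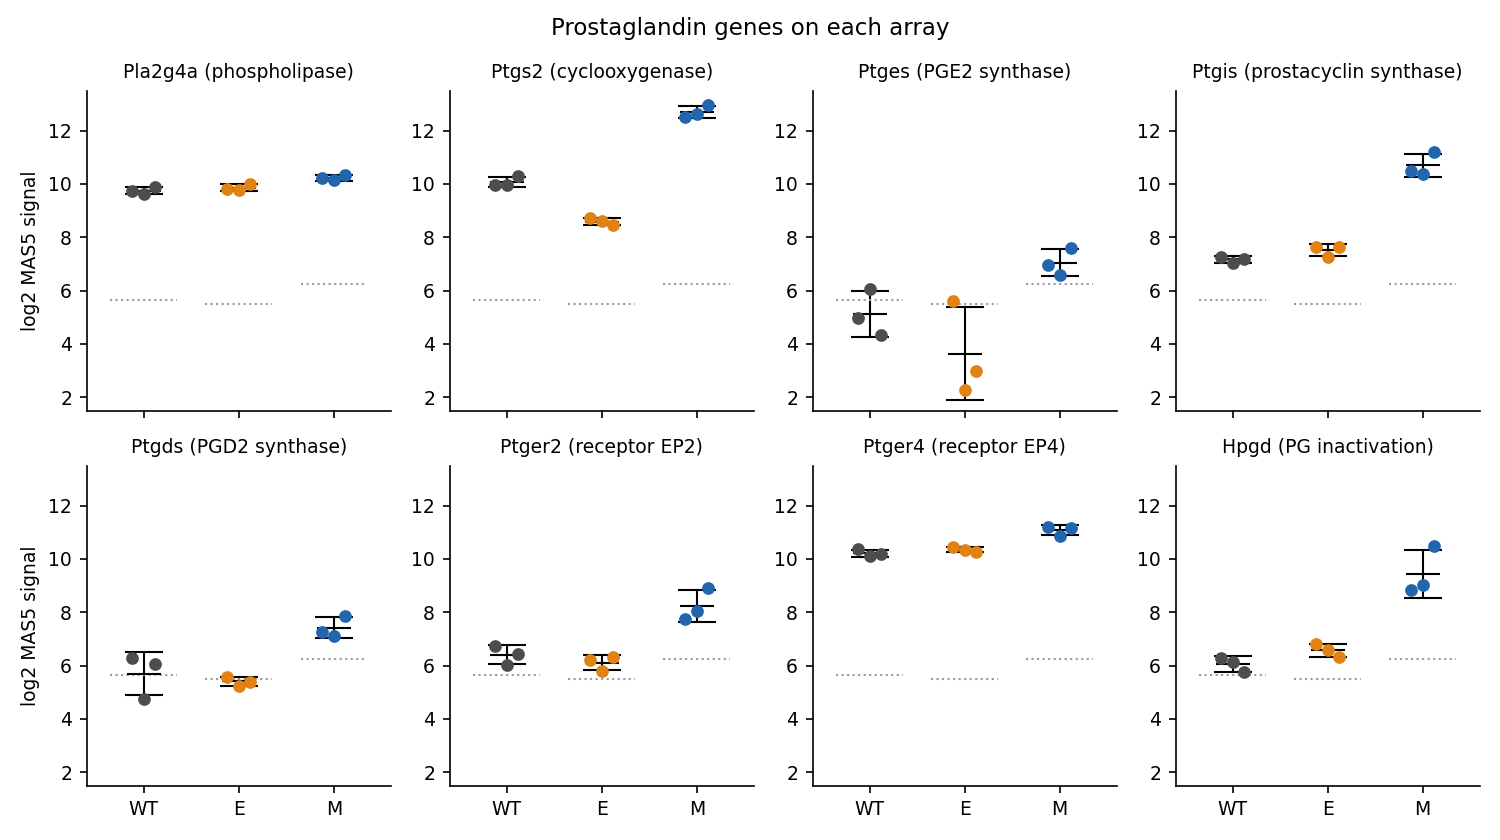
Log2 MAS5 signal of the main probe set of 8 prostaglandin genes on each array, for WT, E and M from left to right. Points are arrays, bars the mean with SD (n = 3), and dotted lines the median of all probe sets in the group. Ptgs2 reads 9.96 to 10.29 in WT, 8.44 to 8.72 in E and 12.52 to 12.95 in M, while the WT and E points of the other genes lie close together or overlap.

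In the medium phase, all 6 prostaglandin genes over the filter read higher than in WT, led by Ptgis, Hpgd and Ptgs2. The same 6 were called higher against E. Since 25.3% of the tested genes were called higher in M than in WT and 43.5% lower (26.1% and 43.9% in M against E), and 2 of the 6 were tested only because of their M signal, this count describes the genes and sets them apart from nothing. The differences ranged from 0.48 to 3.53 (log2), beside a median of -0.19 over all genes tested. With arrays scaled on the spike-ins, Ptgs2, Ptgis, Hpgd and Ptger2 stayed higher in M, the differences of Ptger4 (-0.15, not called) and Pla2g4a (-0.53) turned negative, and 966 genes were called higher and 7222 lower. With arrays centred on their medians, the split was 1262 higher and 6639 lower.

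Ptgs2 read 12.52, 12.60 and 12.95 in M, against 9.97, 9.96 and 10.29 in WT. The groups were far apart: it was 6.14-fold higher in M (log2 difference 2.62, SE 0.13, adjusted p = 2.95e-08 by limma), and 1.61 higher (log2) after spike-in scaling. The second probe set gave a log2 difference of 2.56, with 8.55, 8.35 and 8.84 in M, against 5.83, 5.90 and 6.33 in WT. Ptgs2 was thus below WT in E and above WT in M, and M exceeded E 17.2-fold (log2 difference 4.11, SE 0.13, adjusted p = 8.65e-10 by limma), which ranked 207 from the highest of 9097 genes. The M comparisons share the M arrays.

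Pla2g4a, the cytosolic phospholipase next to Ptgs2 on the chromosome, moved little. It read 10.21, 10.13 and 10.33 in M, against 9.72, 9.63 and 9.88 in WT. The arrays did not overlap, and the gene was 1.39-fold higher in M (log2 difference 0.48, SE 0.10, adjusted p = 0.00138 by limma). The direction depended on the scaling: the difference was -0.53 (adjusted p = 0.0166) after spike-in scaling and -0.15 (adjusted p = 0.220) after centring on the median. Against E the difference was 0.37 (adjusted p = 0.00707), and -0.65 (adjusted p = 0.00319) after spike-in scaling.

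Of the 3 terminal synthases, Ptgis alone lay over the filter. This prostacyclin synthase read 10.49, 10.38 and 11.20 in M, against 7.26, 7.03 and 7.20 in WT. All M arrays were over 3 log2 units above all WT arrays, an 11.5-fold difference (log2 3.53, SE 0.20, adjusted p = 9.18e-08 by limma) that ranked 269 from the highest of 9097. Against E, whose arrays read 7.64, 7.26 and 7.63, it was 9.06-fold higher in M (adjusted p = 1.62e-07 by limma).

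The other synthases were dim. Ptges, the inducible prostaglandin E2 synthase, read 4.96, 6.04 and 4.32 in WT, 5.62, 2.29 and 3.00 in E, and 6.97, 6.58 and 7.60 in M. The M arrays were highest, but 2 WT arrays and 2 E arrays lay well below the median of all probe sets, where single arrays scatter. The log2 difference of M from WT was 1.94 and did not pass (95% interval 0.26 to 3.62, adjusted p = 0.0608 by limma), and that of M from E was 3.41 (SE 0.77, adjusted p = 0.00280). The call against WT turned on single settings: a second probe set passed (3.07, adjusted p = 0.00783), the last did not (1.33, adjusted p = 0.353), and the main one passed without WT replicate 2 (adjusted p = 0.0460), E replicate 1 (0.0140) or E replicate 2 (0.0386).

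Ptgds, the prostaglandin D2 synthase, read 6.29, 4.76 and 6.05 in WT, 5.59, 5.25 and 5.39 in E, and 7.25, 7.13 and 7.87 in M. All M arrays lay above all others. M was 3.29-fold above WT (log2 1.72, adjusted p = 0.00412) and 4.02-fold above E (log2 2.01, adjusted p = 0.00134 by limma). In the fit without the filter, 22.2% of genes were called higher in M than in WT and 24.1% higher in M than in E. After spike-in scaling both Ptgds calls were lost (0.71 with adjusted p = 0.208, and 0.99 with adjusted p = 0.0713), and after quantile normalization that against WT was lost (1.12, adjusted p = 0.0537). The second Ptgds probe set, near the bottom of the scale in WT, read 5.37, 6.25 and 5.16 in M, against 2.56, 2.02 and 2.18 in WT. All of these lay below the median of all probe sets in their group.

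The receptors differed in size of change. Ptger4, which encodes EP4, read 11.19, 10.86 and 11.17 in M, against 10.36, 10.10 and 10.18 in WT. The arrays did not overlap, at a 1.82-fold difference (log2 0.86, SE 0.11, adjusted p = 3.40e-05 by limma), and the second probe set gave 1.07 (adjusted p = 0.00897). Its direction, too, depended on the scaling, with -0.15 (adjusted p = 0.512) after spike-in scaling and 0.24 (adjusted p = 0.102) after centring on the median. Against E the difference was 0.73 (adjusted p = 0.000109), and -0.29 (adjusted p = 0.186) after spike-in scaling and -0.04 (adjusted p = 0.792) after centring. Ptger2, which encodes EP2, read 7.76, 8.07 and 8.90 in M, against 6.75, 6.04 and 6.43 in WT. It was 3.57-fold higher in M (log2 1.83, SE 0.31, adjusted p = 0.000306 by limma) and 0.82 higher (log2) after spike-in scaling. Against E, whose arrays read 6.20, 5.81 and 6.34, Ptger2 was 4.36-fold higher in M (adjusted p = 9.23e-05).

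Hpgd, which inactivates prostaglandins, read 6.29, 6.16 and 5.74 in WT, 6.81, 6.57 and 6.34 in E, and 8.85, 9.02 and 10.48 in M. All M arrays lay above all others. It was 10.5-fold higher in M than in WT (log2 3.39, SE 0.37, adjusted p = 1.29e-05 by limma) and 7.34-fold higher than in E (adjusted p = 3.70e-05). M replicate 3 read 1.55 (log2) above the mean of the other M arrays, and without it the log2 difference of M from WT was 2.87. A second, dimmer Hpgd probe set gave 2.58 (adjusted p = 0.0182). The same array read highest of the M arrays in 7 of the 8 genes, all but Ptger4, and without it the log2 differences of M from WT were 2.49 for Ptgs2, 3.27 for Ptgis and 1.51 for Ptger2.

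**Figure D3:**
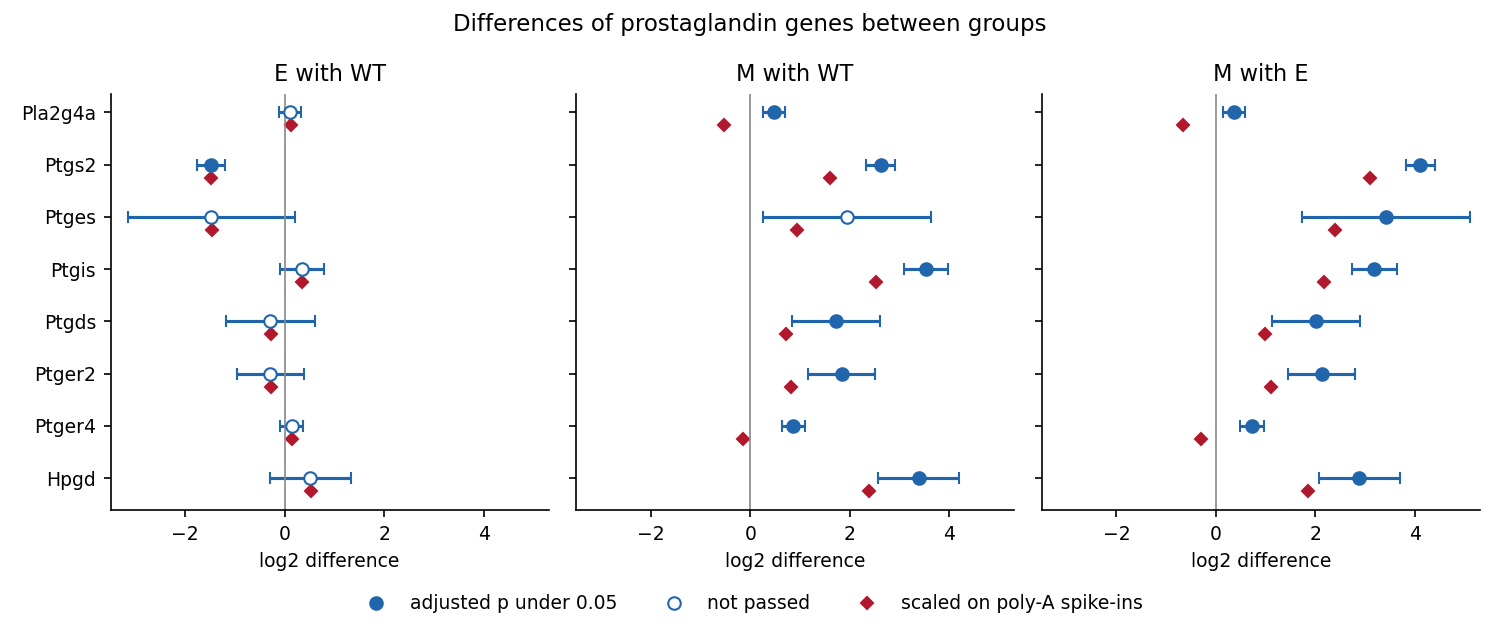
Log2 differences between groups for 8 prostaglandin genes, with 95% intervals, and the same differences after scaling arrays on the poly-A spike-ins (diamonds, no interval). Filled points have an adjusted p under 0.05, with Ptges and Ptgds taken from the fit without the filter. In E with WT only Ptgs2 (-1.49) is filled, and with M the diamonds of Pla2g4a and Ptger4 lie below 0 while those of Ptgs2, Ptgis, Hpgd and Ptger2 stay above it.

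Across the 9 arrays the shapes differed between genes. By root mean square difference of centred log2 values over the 9 arrays, the genes most like Ptgs2 were Sgk1 (0.14), Scin (0.17) and Ddit4l (0.17). Sgk1 read 10.87 in WT, 9.68 in E and 13.60 in M on average, so its E mean, like that of Ptgs2, lay below its WT mean. Most like Ptgis were Mir22hg (0.06), Lyz1 (0.13) and Pxdn (0.14), which changed little in E, as did Fkbp7, Cdon (0.28 each) and Mgst2 (0.30), the nearest to Hpgd. The nearest to Ptger2 were Itga10 (0.17), 5031439G07Rik and Ccdc126 (0.21 each), to Ptger4 Dbi (0.08), Tapbp (0.09) and Setd7 (0.11), and to Pla2g4a Copa (0.07), Txnrd1 and 4932438A13Rik (0.08 each). All of these likenesses rest on the same 9 arrays and follow in the main the step to M.

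Of 44 further genes of prostaglandin and leukotriene metabolism listed from general knowledge, 41 were on the array and 19 lay over the filter. In E against WT, limma called 0 of the 19 in either direction (2 as lower without M replicate 3), beside 0.462% of all tested genes higher and 1.65% lower. At an unadjusted p under 0.05, Pla2g12a (0.21) was higher and Mgst3 (-0.48) and Pla2g15 (-0.50) were lower. The log2 differences of all 19 ran from that of Pla2g15 (adjusted p = 0.322) to 0.36 for Mgst2 (adjusted p = 0.541). In M against WT, 8 were called higher, 7 lower and 4 not, with a median of 0.08 beside -0.19 over all genes tested, of which 25.3% were called higher and 43.5% lower. Pla2g5, Mgst2 and Ptgfrn were tested through their M arrays alone, their means over the WT and E arrays lying under the filter, so their calls were partly fixed by it. Of the other 16, 5 were called higher and 7 lower, with a median of 0.01. The secreted phospholipase Pla2g5 rose in M by 3.12 (log2), while the phospholipases Pla2g12a (-1.06) and Pla2g6 (-0.49) fell. Ptges2, another prostaglandin E2 synthase, fell by 0.95, and Prxl2b, a prostaglandin F synthase, rose by 0.54. Abcc4, an exporter of prostaglandin E2, fell by 0.91. Among the enzymes that reduce prostaglandins or their metabolites, Ptgr2 (-0.86) and Cbr1 (-0.47) fell and Ptgr1 (0.39) rose.

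Other members of the list read far higher in M than in WT. Ptgfrn, which encodes a membrane protein, rose by 4.49 (log2, adjusted p = 3.27e-08 by limma). Mgst1 (3.67) and Mgst2 (3.63), microsomal glutathione transferases of the family that also holds Ptges, rose, as did Anxa1 (3.48), an annexin that curbs phospholipase A2, and Alox5ap (2.01), which presents arachidonic acid to 5-lipoxygenase. Mgst3 fell by 0.69. After spike-in scaling, 6 of the 8 genes called higher kept a positive difference and Prxl2b and Ptgr1 turned, as they did with centring on the median, while all 7 called lower stayed negative. The call of Prxl2b was lost without WT replicate 2 or 3 (adjusted p up to 0.0687). Against E, 9 were called higher and 6 lower in M (6 and 6 of the 16), where 26.1% of all tested genes were called higher and 43.9% lower. Ptger3, the receptor EP3 (0.27), and Pla2g15, a lysosomal phospholipase (0.58), were called higher against E and not against WT, a contrast that was not tested. Each lost its call without some single arrays (adjusted p up to 0.0604 and 0.121) and turned negative after spike-in scaling.

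**Figure D4:**
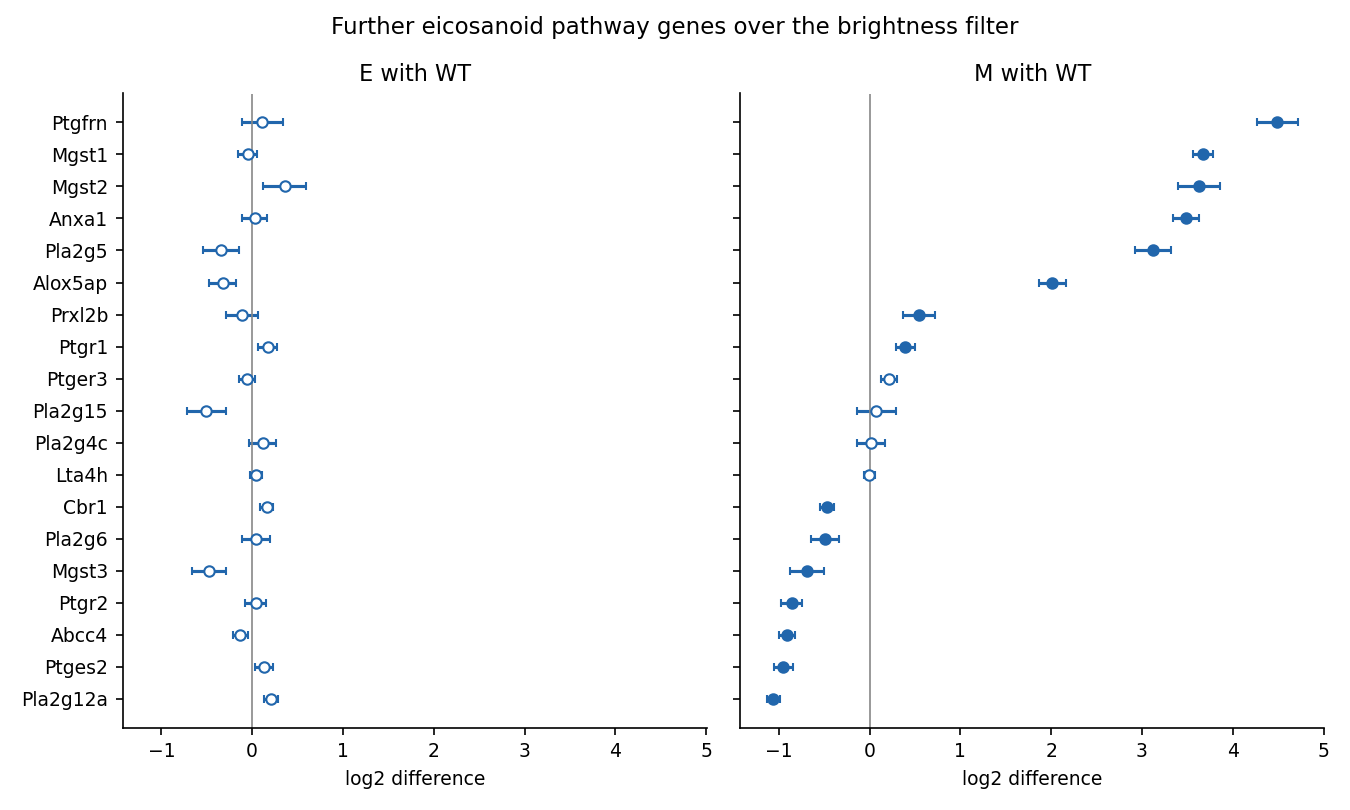
Log2 differences of 19 further eicosanoid pathway genes over the brightness filter, with SE of the model, E with WT on the left and M with WT on the right. Filled points have an adjusted p under 0.05. On the left 0 genes are filled, and on the right 8 lie above 0 and 7 below it.

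Genes that respond to cyclic AMP, the second messenger of EP2 and EP4, were listed as well, although other stimuli induce them too. Of 14 genes, 11 were tested. In E against WT, Dusp1 (-1.14, adjusted p = 0.000154), Rgs2 (-0.86, adjusted p = 0.00312) and Pde4b (-0.84, adjusted p = 0.00264) fell, and 8 were not called, with a median of -0.20 beside 0.01 over all genes tested (5 fell without M replicate 3). Over all tested genes, 1.65% were called lower in E. In M against WT 9 were called higher and Pde4d lower (-0.35), with a median of 1.82, while 25.3% of all tested genes were called higher and 43.5% lower. Nr4a1, Gem and Sik1 passed the filter through their M arrays alone, and of the other 8 genes 6 were called higher and 1 lower, with a median of 1.20. The orphan nuclear receptors Nr4a1 (4.21) and Nr4a2 (3.57), the GTP-binding protein Gem (3.79), the AP-1 subunit Fosb (3.18), Rgs2 (1.96), the kinase Sik1 (1.82) and the phosphatase Dusp1 (1.75) rose. Crem (0.66) and Per1 (0.45) rose as well and turned negative after spike-in scaling (Per1 also after centring on the median), and Per1 lost its call without WT replicate 1 (adjusted p = 0.0715). Against E, 10 were called higher in M and 0 lower, with a median of 2.82 (7 and 0 of the 8, with a median of 1.95), where 26.1% of all tested genes were called higher. Of these, Crem and Per1 turned negative after spike-in scaling and after centring on the median. The call of Per1 (0.35, adjusted p = 0.0494) was also lost without WT replicate 2, E replicate 1 or 2, or any 1 M array (adjusted p up to 0.175).

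A list of 13 inducers and regulators of Ptgs2 had 9 tested genes. In E against WT Zfp36, which encodes an RNA-binding protein that destabilises Ptgs2 messenger RNA, fell (-1.17, adjusted p = 0.00308 by limma), and 8 were not called (3 genes fell without M replicate 3). The share of all tested genes called lower in E was 1.65%. In M against WT 7 were called higher and 2 lower, with a median of 2.62, beside the 25.3% and 43.5% over all tested genes. Il1r1 passed the filter through its M arrays alone, and of the other 8 genes 6 were called higher and 2 lower, with a median of 1.73. Tsc22d3 (3.04), a glucocorticoid target, the interleukin 1 receptor Il1r1 (2.86), Zfp36 (2.68), and the transcription factors Cebpd and Cebpb (2.62 each) rose. Il1b (0.83), the cytokine, and Nr3c1 (0.42), the glucocorticoid receptor, rose and turned negative after spike-in scaling (Nr3c1 also after centring). The RNA-binding protein gene Elavl1 (-0.43) and the NF-kB subunit gene Rela (-0.26, lost without WT replicate 3 with adjusted p = 0.0537) fell. Against E the counts were also 7 higher and 2 lower, beside 26.1% and 43.9% over all tested genes. There the call of Il1b (0.62, adjusted p = 0.0347) was lost without E replicate 3 or any 1 M array (adjusted p up to 0.125), and its difference turned negative after quantile normalization, centring on the median and spike-in scaling, as did that of Nr3c1 after the last 2.

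The mesenchymal marker sum was at least 10.1 times higher in every M array than in any WT or E array. The osteoblast sum was at least 8.58 times higher, the pericyte sum 7.40 times, the granulocyte sum 7.30 times and the endothelial sum 3.46 times. Smaller rises were those of the pan-leukocyte (at least 1.51 times), mast cell (1.29), megakaryocyte (1.18) and macrophage (1.06) sums. All 5 tested pan-leukocyte markers were called higher in M than in WT, beside 25.3% of all tested genes (Ptprc 0.87, adjusted p = 0.00192 by limma). The erythroid and B lineage sums overlapped between M and the other groups. The sums higher in M and the genes called higher in M were thus high in the same arrays. All sums are on the deposited scale. Between WT and E the marker sums moved in different directions. The mesenchymal, granulocyte and B lineage sums were higher in every E array than in any WT array. The pericyte sum was lower (298 to 330 in E, against 397 to 433 in WT), as were the pan-leukocyte, macrophage and erythroid sums. The other sums overlapped. Ptgs2, Dusp1, Rgs2, Pde4b and Zfp36 fell in E. What part the makeup of the sorted cells had in these differences was not tested.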

How the data were processed

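The values deposited by the authors are log2 signals. The submitters' processing notes name MAS5, whose version is not given in the sources used here. RNA was extracted with Trizol and labelled with a GeneChip 3'IVT Express kit, per the labels. The mean linear signal after trimming 2% of probe sets at each end was 500 on every array, so the arrays had been scaled to 1 total, which can hide a shift of all genes. Of 45101 probe sets, 34958 had a single gene symbol in the platform annotation, 932 several and 9211 were not listed. A gene was read from its brightest single-symbol probe set. Groups were compared in a linear model, using limma 3.58.1 and R 4.3.3 (lmFit and eBayes with an intensity trend, all 9 arrays, no block), after keeping genes at or above the median of gene means, with Benjamini-Hochberg adjustment and a threshold of 0.05. The fit was tested on simulated data. P-values measure the spread between arrays labelled biological replicates. Groups came from the sample titles. No batch is given in the labels.

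The members, the 3 pathway lists and the 11 marker lists were chosen with earlier results of these data known. Named were all members, list genes called in a comparison, and for each member over the filter the 3 genes most like it. Promoter windows and gene positions are from RefSeq (GRCm38.p6). Alternatives were pseudocounts, other scalings, other limma settings, a replicate block, other filters, other probe sets, fits of 2 groups and leaving out each array.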

Additional observations from a re-analysis of the deposited data

How the results depend on the processing

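Ptgs2 stayed lower in E than in WT in all settings tried, with log2 differences between -1.58 and -1.35, and was called in all but that of its second probe set (adjusted p = 0.0666). The count of all genes called between E and WT was unstable: 192 as reported, 118 with quantile normalization, 848 with array weights, 85 with the stricter filter, 99 with the mean of probe sets, 756 with only the arrays of those 2 groups, and between 98 and 836 with 1 array left out. It was 836 without M replicate 3, and 98 to 113 without any 1 WT or E array. With arrays centred on the median, 131 genes were called higher and 103 lower in E, against 42 and 150 as deposited. Prostaglandin genes called numbered 1 in E against WT and 6 in both M comparisons without any 1 array. The stricter filter left 3 members called and 3466 genes in M against WT, and 3 members and 3485 genes in M against E, since it tests fewer genes. Without the filter, 4032 genes were called higher and 3848 lower in M against WT, and 4382 and 3892 in M against E, where the split as reported was 2376 and 3992. Spike-in scaling gave 1031 higher and 7179 lower in M against E, and centring 1221 and 6948.

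Directions turned in these cases. In M against WT, Pla2g4a was at -0.53 with spike-in scaling, -0.51 with the other forms of the spike-in probe sets (a setting chosen after seeing the data) and -0.15 with centring, and Ptger4 at -0.15 and -0.13 with the 2 spike-in scalings. In M against E, Pla2g4a was at -0.65, -0.69 and -0.40, and Ptger4 at -0.29 and -0.33, and at -0.037 with centring. Subtracting the spike-in shift by construction lowers every M value. In E against WT, none of which were called, Ptgds lay between -0.76 and 0.0025 with 1 array left out (above 0 without WT replicate 1), the second Ptger4 probe set at -0.13, and a second Ptges probe set at 0.67, and the cause was not tested. Further pathway genes called in E against WT ranged from 0 to 3, cyclic AMP genes from 1 to 5 and Ptgs2 regulators from 0 to 3. In M against WT the further pathway count was 8 with the stricter filter and 23 without a filter, and the cyclic AMP count 1 with the stricter filter.

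Same-numbered arrays did not deviate together (correlations of -0.10 to 0.08, with 0 of 9 pairs over 0.1), so the numbers do not pair the arrays. With the replicate block, 153 genes were called in E against WT, 6100 in M against WT and 6248 in M against E, and the members called were unchanged in number at 1, 6 and 6. Signals near the median of all probe sets (Ptges, Ptgds and most second probe sets) limit what these arrays can show.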

Other observations

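Several prostaglandin receptors and a transporter lay under the brightness filter. In the fit without it, 4 of these were called higher in M than in WT, as were 22.2% of all genes. They were named after their values were seen, and their differences after spike-in scaling are not given here. Ptgir, the receptor of the prostacyclin that Ptgis makes, averaged 4.71 ± 0.32 in WT, 4.39 ± 2.12 in E and 8.32 ± 0.46 in M (log2, SD, n = 3 each), a log2 difference of M from WT of 3.61 (adjusted p = 0.00242 by limma). Ptgfr, the prostaglandin F receptor, averaged 7.62 ± 0.52 in M, against 4.38 ± 0.27 in WT (difference 3.25, adjusted p = 8.93e-05 by limma). Slco2a1, the importer that delivers prostaglandins to Hpgd, averaged 7.62 ± 0.56 in M, against 4.89 ± 1.17 in WT (difference 2.73, adjusted p = 0.0101 by limma). Tbxa2r, the thromboxane receptor, averaged 5.95 ± 0.78 in M, below the median of all M probe sets, against 3.67 ± 0.14 in WT (adjusted p = 0.00666). In the WT and E groups all 4 genes averaged below the median of all probe sets, so their M differences are set against signals that the arrays do not resolve well. The receptor genes Ptger1 (-0.58, adjusted p = 0.646), Ptgdr (0.51, adjusted p = 0.580) and Ptgdr2 (0.88, adjusted p = 0.433) did not pass in M against WT, nor in M against E, where Ptger1 differed by -1.61 (adjusted p = 0.158). Hpgds (adjusted p = 0.795), the hematopoietic prostaglandin D2 synthase, and Tbxas1 (adjusted p = 0.107), the thromboxane synthase, did not pass in M against WT.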
